A study of Mus musculus with 12 samples.

Results

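Ion channel genes were followed through whole mouse spinal cord at 2 times in mice labelled as deleted for Ddx20. The members were the genes whose symbol begins with Kcn, Scn and a digit, or Cacn, together with the HCN genes, leaving out Kcna1, Kcna2, Scn8a and Kcnj10, that reached 1 CPM (counts scaled to a common library size) in at least 3 of 12 libraries. Of 139 genes with such symbols, 111 reached this level and 28 did not, among 56953 genes in all, of which 19278 were tested. Just inside the minimum were Kcnmb1 and Kcnq1, whose third-highest libraries held 1.11 and 1.26 CPM. Just outside were Kcnh4 and Cacna1s, at 0.947 and 0.858 CPM. The name pattern is wider than voltage-gated pores: it also takes in inward rectifier and tandem-pore-domain (K2P) potassium channels, auxiliary subunits, AMPA receptor partners named as calcium channel gamma subunits, and the non-coding RNA Kcnq1ot1. Kcnn4, Kcnj4 and Kcnq1 reached 1 CPM only in cKO-labelled libraries, so that they had to be higher there to be members at all.

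The mice labelled Ddx20 cKO carried loxP-flanked Ddx20 alleles and the Plp-CreER driver, a tamoxifen-activated recombinase expressed in the oligodendrocyte lineage and not in neurons generally. Control and cKO mice were both sampled at 4 and at 4.5 weeks after tamoxifen, with 3 animals in each of the 4 groups. The genotype of the controls beyond that word, and the age of the animals, are not given in the labels. Libraries were made from messenger RNA of the whole cord and held 33104560 to 47677267 counts.

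Ddx20 transcript, which checks the labels, was not lower in the cKO-labelled libraries. By edgeR's quasi-likelihood test it was not called at 4 weeks (adjusted p 0.841). At 4.5 weeks it was called higher in the cKO-labelled libraries (log2 change 0.325 ± 0.102, adjusted p 0.0134). It held 11.01, 9.78 and 11.1 CPM in the 4-week controls and 10.2, 11.1 and 9.90 CPM in the cKO-labelled libraries, and 9.16, 10.6 and 9.72 against 12.4, 11.1 and 13.3 CPM at 4.5 weeks. Gene-level counts over all cells do not resolve a deleted exon, so the directions below are those between libraries as labelled. Markers of neurons, oligodendrocytes and astrocytes were all present. Xist, the transcript of the inactive X chromosome, had at most 2 counts in the 4-week controls and 3 in cKO library 3 of that time, but 13563 or more in each of the other libraries. Sex and genotype therefore overlapped at 4 weeks, while the 6 libraries of 4.5 weeks were of 1 sex. Control library 1 of 4.5 weeks stood apart through genes of sensory ganglia, and control library 2 through genes of skeletal muscle.

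Voltage-gated sodium channels raise the action potential, and potassium channels end it and set the resting potential of neurons and glia. Calcium channels couple depolarisation to transmitter release and to gene expression, and HCN channels carry a pacemaker current that opens on hyperpolarisation. Pore-forming alpha subunits are accompanied by auxiliary subunits that change their traffic and gating. Glia rely mainly on inward rectifier and K2P potassium channels, which buffer the potassium that active axons release, and microglia use a small group of potassium channels in their surveillance and activation.

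Channel genes were predominantly lower in the cKO-labelled libraries, and more so at 4.5 than at 4 weeks. At 4 weeks 44 of the 111 members fell and 7 rose by edgeR's quasi-likelihood test at an adjusted p below 0.05, where 17.2% and 20.1% of all genes tested fell and rose (37.2% were called in either direction). At 4.5 weeks 87 fell and 13 rose, against 32.6% and 33.3% of all genes (65.9% in either direction). The rises at both times include Kcnj4, Kcnn4 and Kcnq1, which were members only through cKO-labelled libraries. Their direction was set by the membership rule, so they add nothing to the comparison with all genes. The median log2 fold change of the members was -0.24 at 4 weeks and -0.96 at 4.5 weeks, beside 0.007 and 0.021 for all genes. In bulk tissue, fewer cells of a type and less RNA per cell cannot be told apart. The 3 cKO-labelled libraries lay wholly below the 3 controls for 57 members at 4 weeks and 84 at 4.5 weeks, beside 23.1% and 35.6% of all genes, and wholly above them for 10 and 14, beside 24.1% and 36.8%.

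Every member called at 4 weeks was called in the same direction at 4.5 weeks: the 44 falls made up 50.6% of the later falls, and the 7 rises 53.8% of the later rises. With 87 of the 111 members lower at 4.5 weeks, a large overlap of falls follows from that count alone. The overlap over all genes was not counted, so nothing particular to channels can be read from it. The direct test of the difference between the effects called 64 members for a lower effect at 4.5 weeks and 8 for a higher one, where 21.9% and 18.7% of all genes were called (40.7% in either direction). Its median over the members was -0.73, beside -0.025 for all genes. The count of 44 at 4 weeks was less firm than that of 87: it was 19 with a term for sex, 29 with libraries scaled by their totals alone (beside 11 rises), and 29 without control library 3 or without cKO library 2 of 4 weeks. All genes tested lost calls in the same fits, from 3313 lower at 4 weeks to 1914 with the sex term and 2176 with library totals, and the members' median was -0.24 with the sex term. Among the genes described below, that term ended the 4-week calls of Cacna1b, Cacna2d3, Cacng2, Kcnab2, Kcng4, Kcnh2, Kcnj6, Kcnj11, Kcnj12, Kcnk5, Scn1a, Scn2a and Scn4b (adjusted p 0.0517 to 0.41), and the calls for a difference between the times of Cacna1c, Cacna1i, Kcna5, Kcnf1 and Kcnk1 (adjusted p 0.0617 to 0.184). The term rests on 1 male cKO library. With it the 4-week falls of Cacna1b, Kcnh2, Kcnj11, Kcnj12 and Scn2a were smaller, and those of the other genes listed for 4 weeks were larger.

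**Figure D1:**
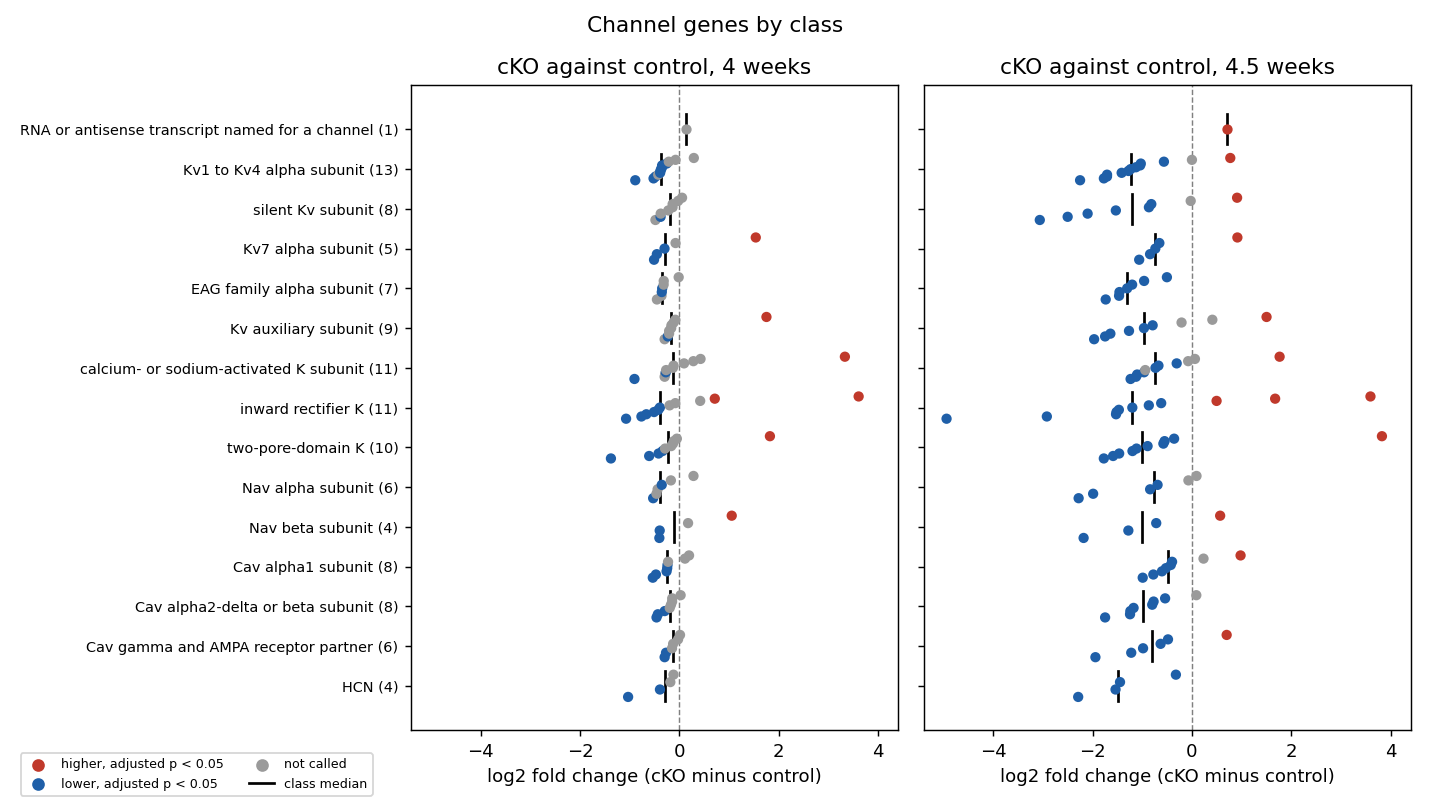
Log2 fold change of each channel gene (1 point per gene, cKO minus control) by channel class, at 4 weeks (left) and 4.5 weeks (right), with the number of genes in brackets, the class median as a black bar and the call by colour. At 4.5 weeks the medians of the 14 channel classes lie between -1.49 (HCN) and -0.48 (pore-forming calcium channel subunits), and the single point of the non-coding RNA lies at 0.70.

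The classic voltage-gated potassium pores fell almost as a block. Of 13 Kv1 to Kv4 alpha subunit genes, 9 fell and 0 rose at 4 weeks (10 had an unadjusted p below 0.05), and 11 fell and 1 rose at 4.5 weeks, with medians of -0.37 and -1.23. Beside this and every class count below, 17.2% and 20.1% of all genes fell and rose at 4 weeks, and 32.6% and 33.3% at 4.5 weeks. Kcnc1, a fast delayed rectifier that lets neurons fire at high rates, had 255, 229 and 289 CPM in the 4-week controls against 189, 180.1 and 186 CPM in the cKO-labelled libraries. At 4.5 weeks Kcnc1 had 272, 307 and 356 CPM in the controls against 86.6, 102 and 97.4 CPM in the cKO-labelled libraries. The groups of Kcnc1 did not overlap at either time (-0.48 ± 0.10 and -1.71 ± 0.11 on the log2 scale), and the effects differed between the times (adjusted p 2.88e-05). Kcnc4, of the same family, changed by -0.37 ± 0.071 and then -1.28 ± 0.072 on the log2 scale, written as cKO minus control.

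Kcna6, a low-threshold Kv1 channel of axons, had the largest 4-week fall of the class, with 105.2, 103 and 116 CPM in the 4-week controls against 67.9, 53.4 and 54.5 CPM in the cKO-labelled libraries. At 4.5 weeks Kcna6 had 103, 115 and 125 CPM in the controls against 38.3, 35.8 and 30.8 CPM in the cKO-labelled libraries. Its groups were far apart at both times (log2 change -0.89 ± 0.11, adjusted p 4.29e-05; then log2 change -1.71 ± 0.11, adjusted p 2.54e-08); 39.6% of its exon bases are shared with another annotated gene, and the kit does not mark strand, so its reads cannot all be assigned. Kcnd2, which carries the dendritic A-type current, fell at both times (-0.52 ± 0.10 and -1.04 ± 0.10).

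The member of the class that rose was Kcna5, a Kv1 channel also found in glia and muscle, with 4.99, 5.57 and 4.99 CPM in the 4-week controls against 4.50, 4.77 and 5.46 CPM in the cKO-labelled libraries. At 4.5 weeks Kcna5 had 3.64, 5.11 and 5.13 CPM in the controls against 8.15, 7.34 and 8.22 CPM in the cKO-labelled libraries. At 4 weeks its groups overlapped, and at 4.5 weeks the cKO-labelled libraries were all above the controls (log2 change 0.77 ± 0.15, adjusted p 0.000495). The effects at the 2 times differed (adjusted p 0.006).

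Silent Kv subunits, which form no channel alone and modify Kv2 pores, held some of the deepest falls. At 4.5 weeks 6 of 8 fell and 1 rose (median -1.20), and at 4 weeks 1 fell and 0 rose, with 1 at an unadjusted p below 0.05 (median -0.18). The 4-week share that fell, 12.5%, was no larger than the 17.2% of all genes. Kcng4 (ENSMUSG00000045246.12), expressed in fast motor neurons among other cells, had 103, 116 and 133 CPM in the 4-week controls against 97.9, 91.2 and 82.1 CPM in the cKO-labelled libraries. At 4.5 weeks Kcng4 had 152, 152 and 158 CPM in the controls against 20.3, 20.6 and 14.4 CPM in the cKO-labelled libraries. It lay far below every control at 4.5 weeks (log2 change -3.06 ± 0.13, adjusted p 1.16e-09), and the difference from its 4-week effect was -2.69 ± 0.18. Its smaller 4-week fall (-0.38 ± 0.12) lost its call without any 1 of control libraries 2 and 3 and cKO libraries 2 and 3 of that time, at adjusted p up to 0.12. Kcng1 and Kcns3 fell at 4.5 weeks, with log2 changes of -2.50 ± 0.21 and -2.10 ± 0.13, and neither was called at 4 weeks. Kcnf1 went the other way: it had 6.91, 7.32 and 6.40 CPM in the 4-week controls and 6.36, 6.26 and 7.67 in the cKO-labelled libraries, but 4.80, 6.59 and 8.17 and 11.7, 11.3 and 13.8 CPM at 4.5 weeks. Only at 4.5 weeks did all 3 cKO-labelled libraries exceed the controls (log2 change 0.91 ± 0.17, adjusted p 0.000428; difference between the times, adjusted p 0.00815).

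Of 5 Kv7 genes, 3 fell and 1 rose at 4 weeks, and 4 fell and 1 rose at 4.5 weeks. The riser, Kcnq1, was a member only through cKO-labelled libraries, so its direction was set by the membership rule. EAG genes fell. Kv7 channels carry the M current that limits repetitive firing. Kcnq3, a neuronal M channel subunit, changed by -0.45 ± 0.086 and -0.66 ± 0.086, and the difference between the times was not called (adjusted p 0.209). All 7 EAG family genes fell at 4.5 weeks (median -1.30) and 2 fell at 4 weeks (median -0.35). Kcnh2, of the ERG current, went from 145, 155 and 176 CPM to 61.1, 69.04 and 62.6 CPM at 4.5 weeks, with the groups apart (log2 change -1.30 ± 0.083, adjusted p 2.59e-08), and Kcnh7, a further ERG gene, changed by -1.74 ± 0.17.

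The Kv7 gene that rose was Kcnq1, known mainly from heart and epithelia, at very low levels: 0.642, 0.431 and 0.461 CPM in the 4-week controls, 0.860, 1.74 and 1.88 in the cKO-labelled libraries, and 0.527, 0.493 and 0.403 against 0.646, 1.26 and 0.786 CPM at 4.5 weeks. The cKO-labelled libraries were above the controls at both times (log2 change 1.54 ± 0.36, adjusted p 0.00477; then log2 change 0.92 ± 0.36, adjusted p 0.0405), but the later call was lost without any 1 of 5 libraries of that time (all but cKO library 1), at adjusted p up to 0.198. Its antisense RNA Kcnq1ot1 shares 3.0% of the exon bases of Kcnq1 and 0.1% of its own, and reads of that stretch cannot be told apart in this kit. Kcnq1ot1 rose at 4.5 weeks from 8.99, 9.62 and 8.42 to 15.8, 14.4 and 13.7 CPM (log2 change 0.70 ± 0.11, adjusted p 7.39e-05), and its groups overlapped at 4 weeks.

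Auxiliary Kv subunits split into a falling majority and 1 rising gene. Of 9, 6 fell and 1 rose at 4.5 weeks (median -0.97), and 1 fell and 1 rose at 4 weeks (median -0.16). The 4-week share that fell, 11.1%, was no larger than the 17.2% of all genes. Kcnab2, the cytoplasmic beta subunit that steers Kv1 channels to axons, had 532, 521 and 595 CPM in the 4-week controls against 472, 465 and 466 CPM in the cKO-labelled libraries. At 4.5 weeks Kcnab2 had 619, 631 and 686 CPM in the controls against 199.6, 220.1 and 200.3 CPM in the cKO-labelled libraries. At both times the groups were apart (-0.23 ± 0.067 and -1.64 ± 0.069 on the log2 scale), although the small 4-week fall lost its call without control library 3 of that time (adjusted p 0.0678). Kcnab1, of the same family, was not called at 4 weeks (log2 change -0.16 ± 0.097, adjusted p 0.206) and fell at 4.5 weeks from 166, 163 and 170.0 CPM to 38, 41.1 and 48.4 CPM (log2 change -1.97 ± 0.10, adjusted p 4.22e-09). Kcne1l, a small transmembrane KCNE subunit, rose at both times, with 18.04, 17.9 and 19.8 CPM in the 4-week controls against 49.7, 70.2 and 68.1 CPM in the cKO-labelled libraries. At 4.5 weeks Kcne1l had 16.1, 17.97 and 16.03 CPM in the controls against 51.6, 45.2 and 45.2 CPM in the cKO-labelled libraries. Every library labelled cKO stood far above the highest control (log2 change 1.75 ± 0.12, adjusted p 4.12e-07; then log2 change 1.502 ± 0.12, adjusted p 1.67e-07), and the difference between the times was not called (adjusted p 0.25).

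Among 11 genes of calcium- or sodium-activated potassium channels, 7 fell and 1 rose at 4.5 weeks (median -0.73), and 2 fell and 1 rose at 4 weeks (median -0.13). The 4-week share that fell, 18.2%, was close to the 17.2% of all genes. Kcnma1, the large-conductance BK pore, had 64.8, 63.8 and 69.8 CPM in the 4-week controls against 56.1, 55.8 and 52.3 CPM in the cKO-labelled libraries. At 4.5 weeks Kcnma1 had 84.8, 87.98 and 93.97 CPM in the controls against 43.9, 48.1 and 44.6 CPM in the cKO-labelled libraries. It was below the controls at both times, and further below at 4.5 weeks (-0.27 ± 0.061 and -0.97 ± 0.061, difference adjusted p 4.06e-05). Kcnn2 is a small-conductance channel of the afterhyperpolarisation in motor neurons and other cells. It had 25.2, 26.3 and 34.8 CPM in the 4-week controls against 19.4, 13.6 and 13.3 CPM in the cKO-labelled libraries. At 4.5 weeks Kcnn2 had 27.1, 29.8 and 32.6 CPM in the controls against 13.5, 13.8 and 13.7 CPM in the cKO-labelled libraries. Its fall was already -0.90 ± 0.15 at 4 weeks and -1.13 ± 0.15 at 4.5 weeks, and the difference between the times was not called (adjusted p 0.441). The gene that rose, Kcnn4, is described with the microglial list below.

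Most inward rectifiers fell: 8 of 11 fell and 3 rose at 4.5 weeks (median -1.20), and 6 fell and 2 rose at 4 weeks (median -0.39). Among the later rises, that of Kcnj4 was set by the membership rule, and that of Kcnj8 lost its call without any 1 of 8 libraries. Among the later falls, that of Kcnj13 rested mainly on control library 1. Kcnj3, a pore of the G protein-gated channel that slows neurons, had 60.04, 65.1 and 68 CPM in the 4-week controls against 47.1, 43.04 and 45.7 CPM in the cKO-labelled libraries. At 4.5 weeks Kcnj3 had 68.2, 74.98 and 80.9 CPM in the controls against 30.6, 32.1 and 34.9 CPM in the cKO-labelled libraries. Its groups were apart at both times (log2 change -0.51 ± 0.076, adjusted p 0.000244; then log2 change -1.20 ± 0.077, adjusted p 2.75e-08); another annotated gene shares 31.1% of its exon bases. Kcnj6, of the same channel, changed by -1.52 ± 0.23 at 4.5 weeks. Kcnj12, a classic strong rectifier, fell from 9.82 ± 1.02 to 6.202 ± 1.03 CPM at 4 weeks and from 11.7 ± 1.18 to 4.06 ± 0.165 CPM at 4.5 weeks (mean ± SD, n = 3).

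Kcnj14, a strong rectifier reported mainly in motor neurons and other large neurons, was the most time-dependent inward rectifier apart from Kcnj13, with 39.9, 43.6 and 46.6 CPM in the 4-week controls against 40.5, 40.5 and 32.6 CPM in the cKO-labelled libraries. At 4.5 weeks Kcnj14 had 54.4, 50.4 and 47.4 CPM in the controls against 10.6, 5.91 and 3.40 CPM in the cKO-labelled libraries. At 4 weeks the groups overlapped (log2 change -0.20 ± 0.25, adjusted p 0.573). At 4.5 weeks every library labelled cKO was far below the controls (log2 change -2.92 ± 0.27, adjusted p 8.37e-07; difference between the times -2.73 ± 0.36, adjusted p 7.14e-05). Motor neuron markers (5 genes) summed to 202 to 227 CPM in the 4-week controls, 242 to 289 in the cKO-labelled libraries, 214 to 312 in the 4.5-week controls and 90.0 to 138 in the later cKO-labelled libraries. Of these markers 0 were called at 4 weeks (median -0.006), and all 5 fell at 4.5 weeks (median -1.42). Prph was the largest part of the sums, with 107 to 118 CPM in the 4-week controls and 123 to 171 in the cKO-labelled libraries. It held 166.5 CPM in control library 1 of 4.5 weeks, which stood apart through sensory ganglion genes. The part of the motor neuron markers in the result was not tested.

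Kcnj4, a strong rectifier of forebrain neurons, was the inward rectifier that rose most, from a very low level. It was a member only through cKO-labelled libraries, so it had to be higher there. It had 0.543, 0.308 and 0.537 CPM in the 4-week controls against 3.18, 6.71 and 7.32 CPM in the cKO-labelled libraries. At 4.5 weeks Kcnj4 had 0.402, 0.208 and 0.448 CPM in the controls against 4.27, 4.60 and 4.10 CPM in the cKO-labelled libraries. The groups did not overlap, and the rise was large at both times (log2 change 3.61 ± 0.35, adjusted p 8.81e-06; then log2 change 3.59 ± 0.36, adjusted p 1.57e-06), with an estimated difference of -0.016 ± 0.61. Kcnj13, a weak rectifier of epithelia, stood at 2.36, 0.259 and 0.134 CPM in the 4.5-week controls and 0.0497, 0.0274 and 0 CPM in the cKO-labelled libraries. Its call (log2 change -4.94 ± 1.70, adjusted p 0.0215) rested mainly on control library 1, was lost without that library or any 1 of the later cKO-labelled libraries (adjusted p up to 0.196), and 49.1% of its exon bases are shared with Gigyf2 on the opposite strand.

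K2P channels set the background potassium conductance. At 4.5 weeks 9 of 10 fell and 1 rose (median -1.004), and at 4 weeks 4 fell and 1 rose (median -0.22). Kcnk9, an acid-sensitive leak channel of motor and other neurons, had 139, 137 and 164 CPM in the 4-week controls against 116, 123 and 109 CPM in the cKO-labelled libraries. At 4.5 weeks Kcnk9 had 213, 214 and 205 CPM in the controls against 69.8, 69.7 and 71 CPM in the cKO-labelled libraries. Its cKO-labelled libraries were below the controls at both times (log2 change -0.34 ± 0.069, adjusted p 0.00231; then log2 change -1.59 ± 0.071, adjusted p 1.55e-09). Kcnk5, an epithelial relative, changed by -0.58 ± 0.23 at 4.5 weeks, where its groups overlapped and the call was lost without any 1 of control libraries 1 and 2 and cKO libraries 2 and 3 of that time (adjusted p up to 0.182).

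Sodium channel pores fell without exception among those called. Of 6 alpha genes, 4 fell at 4.5 weeks (median -0.77) and 2 at 4 weeks (median -0.40), and 0 rose. Scn1a, the pore of fast-spiking and motor neurons, had 229.7, 212 and 317 CPM in the 4-week controls against 181, 182 and 164 CPM in the cKO-labelled libraries. At 4.5 weeks Scn1a had 377, 420.0 and 443 CPM in the controls against 86.7, 104.6 and 121 CPM in the cKO-labelled libraries. All cKO-labelled libraries were below the controls at both times. The 4-week fall (log2 change -0.53 ± 0.14, adjusted p 0.0122) lost its call without control library 3 of that time (adjusted p 0.0554), the highest of its group, and with a term for sex (log2 change -0.63 ± 0.22, adjusted p 0.055). The 4.5-week fall was much deeper (log2 change -1.99 ± 0.15, adjusted p 1.08e-07). Scn2a, found on unmyelinated axons and axon initial segments, had 61.6, 52.9 and 59.2 CPM in the 4-week controls against 45.9, 43.8 and 46.3 CPM in the cKO-labelled libraries. At 4.5 weeks Scn2a had 58.8, 71.1 and 74.9 CPM in the controls against 37.6, 42.7 and 46.5 CPM in the cKO-labelled libraries. Its groups were apart (-0.35 ± 0.098 and -0.69 ± 0.098), the 4-week call was lost without control library 1 of that time (adjusted p 0.0537), and the difference between the times was not called (adjusted p 0.0688). Scn3a, mainly an embryonic pore and chosen here after its values were seen as the neuronal alpha gene not called at either time, had log2 fold changes of -0.17 and -0.071.

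The sodium channel beta subunits, adhesion proteins that tune the pores, moved in both directions. Scn4b, which gives the resurgent current of fast-firing neurons, had 393, 388 and 502 CPM in the 4-week controls against 338, 331 and 302 CPM in the cKO-labelled libraries. At 4.5 weeks Scn4b had 555, 555 and 606 CPM in the controls against 99.7, 129.9 and 149 CPM in the cKO-labelled libraries. It fell far below the controls at 4.5 weeks (log2 change -2.18 ± 0.14, adjusted p 2.21e-08), and its smaller 4-week fall (-0.40 ± 0.13) lost its call without any 1 of control library 3 and cKO libraries 2 and 3 of that time (adjusted p up to 0.136). Scn3b, abundant in developing and in injured neurons, rose at both times, with 31.9, 25.7 and 28.8 CPM in the 4-week controls against 54.2, 62.5 and 63 CPM in the cKO-labelled libraries. At 4.5 weeks Scn3b had 23.9, 26.97 and 29.1 CPM in the controls against 36.1, 41.2 and 41.2 CPM in the cKO-labelled libraries. Its cKO-labelled libraries were all above the controls, and the rise was smaller later (log2 change 1.06 ± 0.099, adjusted p 6.62e-06; then log2 change 0.57 ± 0.099, adjusted p 0.000236; difference -0.49 ± 0.14, adjusted p 0.0139).

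Calcium channel pores had the smallest median fall of the 14 channel classes at 4.5 weeks. At 4.5 weeks 6 of 8 fell and 1 rose (median -0.48), and at 4 weeks 5 fell and 0 rose (median -0.24). Cacna1a and Cacna1b, the presynaptic P/Q-type and N-type pores that trigger transmitter release, had 4.5-week log2 fold changes of -0.40 ± 0.084 and -0.60 ± 0.081. Cacna1a held 96.8, 114 and 123 CPM in the controls and 88.1, 85.95 and 79.1 CPM in the cKO-labelled libraries, and the groups did not overlap. Cacna1i, a T-type pore of burst-firing neurons, fell most of the class, with 50.6, 43.2 and 53.3 CPM in the 4-week controls against 33.3, 34.5 and 33.8 CPM in the cKO-labelled libraries. At 4.5 weeks Cacna1i had 48.9, 57.5 and 63.8 CPM in the controls against 27.4, 28.7 and 29.6 CPM in the cKO-labelled libraries. Its cKO-labelled libraries varied little and lay below the controls at both times (log2 change -0.53 ± 0.096, adjusted p 0.000923; then log2 change -0.99 ± 0.096, adjusted p 1.23e-06).

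Cacna1c and Cacna1d, the L-type pores that link activity to gene expression, moved in opposite directions at 4.5 weeks. Cacna1c fell from 48.6, 51.98 and 50.7 to 34.7, 36.9 and 33.5 CPM (log2 change -0.52 ± 0.068, adjusted p 1.64e-05). Cacna1d rose from 26.7, 27.96 and 25.8 to 52.9, 49.4 and 56.1 CPM (log2 change 0.98 ± 0.065, adjusted p 3.77e-08), with no overlap in either gene. At 4 weeks Cacna1d was not called, with 22.9, 22.4 and 21.6 CPM in the controls and 24.2, 23.1 and 25.1 CPM in the cKO-labelled libraries, and its effects differed between the times (adjusted p 1.32e-05).

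Auxiliary calcium channel subunits fell in all but 1 case at 4.5 weeks. Of 8 alpha2-delta and beta genes, 7 fell and 0 rose at 4.5 weeks (median -0.99), and 3 fell and 0 rose at 4 weeks, with a median of -0.18. Cacna2d3, an alpha2-delta subunit that brings pores to terminals, went from 80.6, 79.3 and 83.1 to 21.8, 22.9 and 27.8 CPM at 4.5 weeks (log2 change -1.75 ± 0.095, adjusted p 6.66e-09). Cacnb4, the beta subunit of many presynaptic channels, changed by -0.43 ± 0.083 and -1.24 ± 0.084 on the log2 scale. Of 6 genes named as gamma subunits, 5 fell and 1 rose at 4.5 weeks (median -0.81), and 2 fell and 0 rose at 4 weeks (median -0.14). Cacng2, or stargazin, which anchors AMPA receptors at synapses, held 144, 150.3 and 163 CPM in the 4.5-week controls and 41.9, 40.1 and 36.9 CPM in the cKO-labelled libraries, far below them (log2 change -1.94 ± 0.097, adjusted p 3.56e-09). Cacng7, an AMPA receptor partner of neurons and glia, changed by -0.63 ± 0.060, and at 4 weeks was not called (adjusted p 0.0718).

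The pacemaker channel gene Hcn2 fell at both times. Hcn2 (ENSMUSG00000020331.10) had 481, 442 and 461 CPM in the 4-week controls against 247, 201 and 229 CPM in the cKO-labelled libraries. At 4.5 weeks Hcn2 had 415, 449 and 482 CPM in the controls against 95.4, 99.7 and 80.01 CPM in the cKO-labelled libraries. The cKO-labelled libraries were below every control at both times (log2 change -1.03 ± 0.094, adjusted p 5.22e-06; then log2 change -2.29 ± 0.098, adjusted p 1.1e-09). The effects differed by -1.26 ± 0.13 (adjusted p 1.18e-05).

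**Figure D2:**
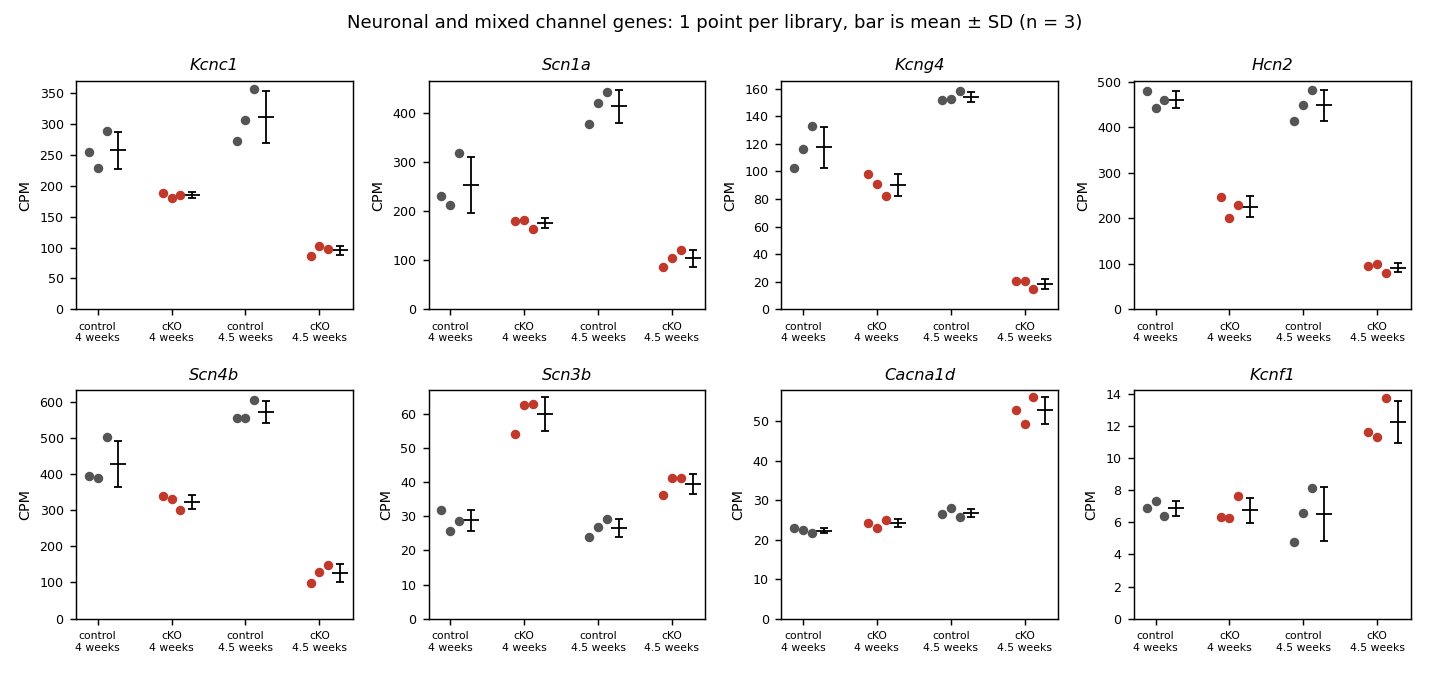
CPM in each library (1 point per library, 3 per group, mean ± SD at the right of each group) of 8 channel genes in the 4 groups. Kcnc1, Scn1a, Kcng4, Hcn2 and Scn4b are lowest in the cKO-labelled libraries of 4.5 weeks, Scn3b is highest in those of 4 weeks, and Cacna1d and Kcnf1 are raised only in those of 4.5 weeks.

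Neuronal channels mostly fell, and glial channels were split by direction. Of 46 channel genes listed as neuronal, 28 fell and 2 rose at 4 weeks, and 40 fell and 3 rose at 4.5 weeks, with medians of -0.34 and -1.13. Of 10 listed as glial, 3 fell and 3 rose at 4 weeks, and 5 fell and 4 rose at 4.5 weeks, with medians of -0.005 and -0.18, where 17.2% and 20.1% of all genes fell and rose at 4 weeks and 32.6% and 33.3% at 4.5 weeks. At 4.5 weeks 4 of the 5 macroglial genes fell and 1 rose, and 1 of the 5 microglial and immune genes fell and 3 rose. The neuronal genes that rose were Scn3b and Kcnj4 at both times and Kcnf1 at 4.5 weeks. Kcnj4 here, and Kcnn4 among the glial rises, had to be higher in cKO-labelled libraries to be members. The neuronal count of 28 was 10 with a term for sex, 17 without control library 3 and 18 without cKO library 2 of 4 weeks. The 5 glial falls of 4.5 weeks were 3 without cKO library 1, and 3 without control libraries 1 and 2, of that time.

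Markers of neurons moved with the neuronal channels. The 7 neuron markers summed to 5470 to 6201 CPM in the 4-week controls, 4876 to 5259 in the cKO-labelled libraries, 6610 to 6899 in the 4.5-week controls and 1910 to 2059 in the later cKO-labelled libraries. At 4 weeks 3 of the 7 fell (median -0.31), and at 4.5 weeks all 7 fell (median -1.55). At 4.5 weeks the markers ranged from -2.01 to -0.60 on the log2 scale, and 34 of the 46 neuronal channels lay within that range, 10 above it and 2, among them Scn4b, below it. At 4 weeks the range was -0.36 to 0.090, with 24 channels within it, 19 below and 3 above. The part of the neuron markers in the channel results was not tested.

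**Figure D3:**
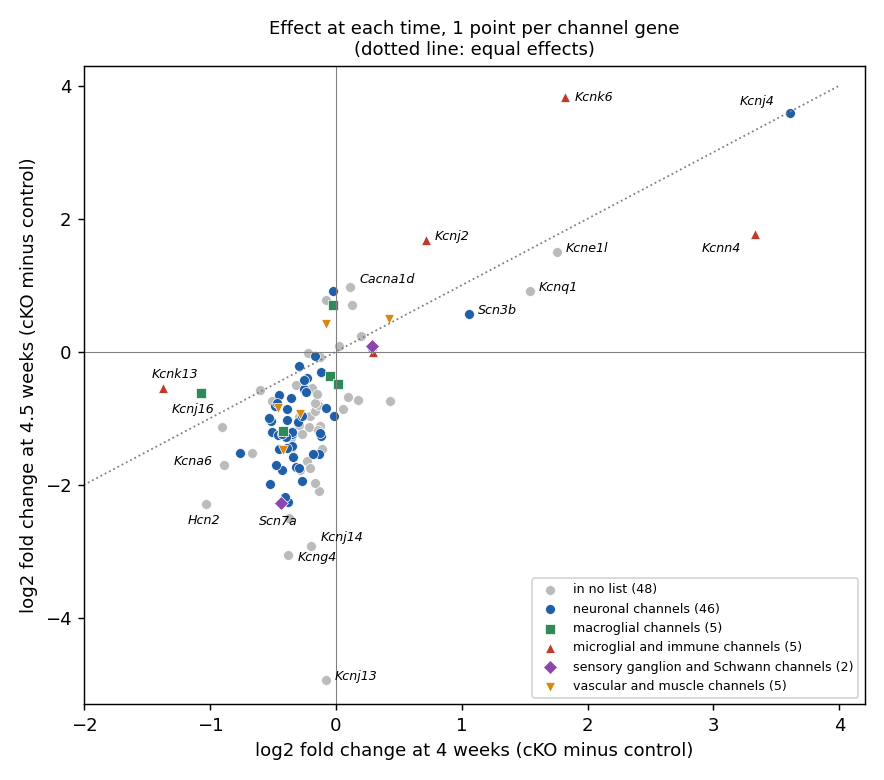
Log2 fold change at 4 weeks (horizontal) against that at 4.5 weeks (vertical), both cKO minus control, for the 111 channel genes, coloured by list. Most points lie below the dotted line of equal effects, and the microglial gene Kcnk6 lies highest at 3.83.

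The microglial and immune list held 3 rises, 1 fall and 1 gene not called at both times. Among the rises, that of Kcnn4 was set by the membership rule, since it reached 1 CPM only in cKO-labelled libraries. Kcnk6 (ENSMUSG00000046410.11), a K2P channel of the TWIK family, had 2.74, 2.98 and 3.97 CPM in the 4-week controls against 7.37, 13.8 and 13.2 CPM in the cKO-labelled libraries. At 4.5 weeks Kcnk6 had 3.84, 3.24 and 3.98 CPM in the controls against 51.5, 51.9 and 53.8 CPM in the cKO-labelled libraries. All cKO-labelled libraries were above the controls, and those of 4.5 weeks were close together far above the rest (log2 change 1.82 ± 0.21, adjusted p 3.26e-05; then log2 change 3.83 ± 0.21, adjusted p 8.64e-09). The rise was larger later by 2.001 ± 0.29 on the log2 scale (adjusted p 0.000138).

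Kcnn4, the intermediate-conductance channel that sustains calcium entry in activated microglia and lymphocytes, went the opposite way in time. It had 0.592, 0.338 and 0.461 CPM in the 4-week controls against 4.36, 4.44 and 5.44 CPM in the cKO-labelled libraries. At 4.5 weeks Kcnn4 had 0.854, 0.648 and 0.895 CPM in the controls against 2.43, 3.20 and 2.55 CPM in the cKO-labelled libraries. The groups were apart at both times, but the rise was larger at 4 weeks (log2 change 3.33 ± 0.24, adjusted p 7.18e-07; then log2 change 1.77 ± 0.22, adjusted p 1.4e-05), with a difference of -1.57 ± 0.32 (adjusted p 0.0018). Kcnj2, the inward rectifier of resting microglia and of vessels, had 10.3, 10.4 and 11.3 CPM in the 4-week controls against 20.2, 14.8 and 17.4 CPM in the cKO-labelled libraries. At 4.5 weeks Kcnj2 had 12.03, 12.9 and 13.2 CPM in the controls against 43.2, 47.1 and 31.5 CPM in the cKO-labelled libraries. It was above the controls in every library labelled cKO and rose further later (log2 change 0.71 ± 0.14, adjusted p 0.00204; then log2 change 1.68 ± 0.14, adjusted p 3.61e-07; difference adjusted p 0.00201).

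Kcnk13, the K2P channel THIK-1 that microglia use to keep their processes moving, fell at both times. It had 41.6, 37.7 and 37.6 CPM in the 4-week controls against 17.6, 14.3 and 13.2 CPM in the cKO-labelled libraries. At 4.5 weeks Kcnk13 had 33.1, 34.9 and 32.4 CPM in the controls against 24.2, 23.3 and 21.02 CPM in the cKO-labelled libraries. No library labelled cKO reached the controls, and the fall was deeper at 4 weeks (log2 change -1.38 ± 0.10, adjusted p 7.67e-07; then log2 change -0.55 ± 0.098, adjusted p 0.000264), the reverse of most members, with a difference of 0.83 ± 0.14 (adjusted p 0.000425). Kcna3, a Kv channel of T cells and activated microglia, held 1.11, 0.800 and 1.28 and 1.69, 1.11 and 1.13 CPM at 4 weeks and 2.21, 3.24 and 2.66 and 3.60, 3.01 and 1.49 CPM at 4.5 weeks in controls and cKO-labelled libraries, with overlap each time and no call.

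Microglia markers (6 genes) summed to 218 to 225 CPM in the 4-week controls, 395 to 590 in the cKO-labelled libraries, 221 to 228 in the 4.5-week controls and 1687 to 1885 in the later cKO-labelled libraries. At 4 weeks 5 of the 6 rose (median 1.32), and at 4.5 weeks all 6 rose (median 3.21). Of the 5 channel genes of the microglial and immune list, Kcnk6, Kcnn4 and Kcnj2 rose with these markers, Kcnn4 by the membership rule. Kcnk13 went the other way at both times (log2 change -1.38 and -0.55), and Kcna3 was not called. The part of the microglia markers in the results of this list was not tested. T cell markers (5 genes) summed to at most 1.19 CPM in any library, so that this cell type's defining genes were near 0.

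The 5 macroglial channel genes, of astrocytes and the oligodendrocyte lineage, moved singly. Kcnj16, a partner of the main astrocyte inward rectifier, had 56.9, 56.4 and 55.3 CPM in the 4-week controls against 34.8, 20.4 and 25.1 CPM in the cKO-labelled libraries. At 4.5 weeks Kcnj16 had 62.1, 63.7 and 63.6 CPM in the controls against 43.9, 41.1 and 38.3 CPM in the cKO-labelled libraries. It was below the controls in every library labelled cKO, with the lowest values at 4 weeks (log2 change -1.07 ± 0.14, adjusted p 8.12e-05; then log2 change -0.62 ± 0.14, adjusted p 0.00142), and the difference between the times was not called (adjusted p 0.0816). Kcnk1, a K2P channel of astrocytes and other cells, had 90.6, 94.2 and 107 CPM in the 4-week controls against 92.3, 61.9 and 64.5 CPM in the cKO-labelled libraries. At 4.5 weeks Kcnk1 had 95.9, 94.2 and 108 CPM in the controls against 37.8, 45.99 and 46.3 CPM in the cKO-labelled libraries. Its groups overlapped at 4 weeks through cKO library 1, and that call (log2 change -0.42 ± 0.14, adjusted p 0.0294) was lost without any 1 of control libraries 2 and 3 and cKO libraries 2 and 3 of that time (adjusted p up to 0.12). At 4.5 weeks the groups were apart (log2 change -1.20 ± 0.14, adjusted p 6.24e-06).

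Cacng4, an AMPA receptor partner of oligodendrocyte progenitors and astrocytes, rose only at the later time, with 53.03, 50.5 and 48.7 CPM in the 4-week controls against 44.4, 48.1 and 56.95 CPM in the cKO-labelled libraries. At 4.5 weeks Cacng4 had 38.4, 44.1 and 43 CPM in the controls against 68.6, 73.03 and 62.1 CPM in the cKO-labelled libraries. At 4 weeks the groups overlapped, and at 4.5 weeks every library labelled cKO was above the controls (log2 change 0.70 ± 0.092, adjusted p 2.09e-05; difference adjusted p 0.000722). Kcnk2 and Cacng5, a mechanically gated K2P channel and a further AMPA receptor partner, fell at 4.5 weeks, with log2 changes of -0.36 ± 0.11 and -0.48 ± 0.17. The Kcnk2 call was lost without control library 1 or cKO library 1 of 4.5 weeks (adjusted p up to 0.054), and that of Cacng5 without any 1 of control library 3 and cKO libraries 1 and 2 (adjusted p up to 0.0926).

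Astrocyte markers (6 genes) summed to 2657 to 3170 CPM in the 4-week controls and 1055 to 1881 in the cKO-labelled libraries, then to 3660 to 3936 against 2033 to 2181 CPM, with 5 of 6 lower and 1 higher at both times. Mature oligodendrocyte markers (7 genes) summed to 31020 to 33430 CPM against 13290 to 18090 at 4 weeks and 28290 to 28690 against 9561 to 10430 at 4.5 weeks. Progenitor markers (5 genes) rose from 133 to 139 CPM to 182 to 242 in sum at 4 weeks, with 3 higher and 1 lower, and from 134 to 141 to 674 to 765 CPM at 4.5 weeks, with all 5 higher. The part of these cell types in the macroglial channel results was not tested.

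**Figure D4:**
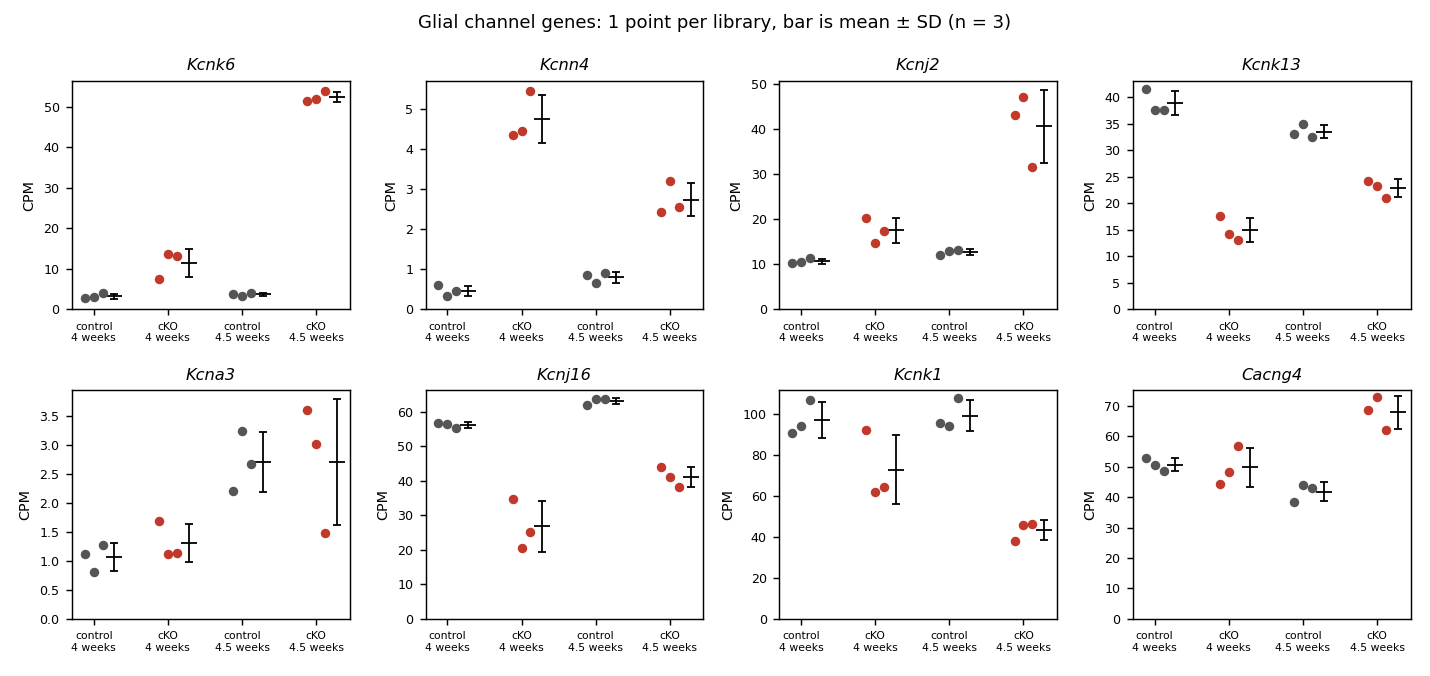
CPM in each library (1 point per library, 3 per group, mean ± SD at the right of each group) of the 5 microglial and immune genes and of Kcnj16, Kcnk1 and Cacng4 in the 4 groups. Kcnk6 and Kcnj2 are above the controls at both times, Kcnn4 is highest and Kcnk13 lowest in the cKO-labelled libraries of 4 weeks, and the groups of Kcna3 overlap.

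Channels of neighbouring tissues differed in size with single libraries. Scn7a, an atypical sodium channel of Schwann and other glial cells, held 28.1, 4.88 and 6.40 CPM in the 4.5-week controls and 2.16, 2.71 and 3.23 CPM in the cKO-labelled libraries, with control library 1 far above the other 2 (log2 change -2.28 ± 0.54, adjusted p 0.00233). Without that library the fall was smaller and was still called (log2 change -1.07 ± 0.26, adjusted p 0.00309). Scn9a, of sensory neurons, held 16.9, 4.46 and 4.28 and 8.59, 10.95 and 7.75 CPM, overlapped and was not called. Scn10a and Scn11a, of pain fibres, passed 1 CPM only in control library 1 of 4.5 weeks, with 27.2 CPM for Scn10a, and were no members. Sensory ganglion markers (7 genes) summed to 89.0 CPM in that library, 2.93 CPM in the lowest control of its time, and 13.4 to 16.7 CPM in the cKO-labelled libraries. Schwann cell markers (4 genes) summed to 2.89 to 224 CPM over the same controls and 4.60 to 5.54 CPM in the cKO-labelled libraries, and the part of these tissues in the Scn7a result was not tested.

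Of 5 channel genes listed for vessels and muscle, 2 fell and 1 rose at 4.5 weeks. These shares (40.0% and 20.0%) were not far from the 32.6% and 33.3% of all genes. Kcnj11 and Kcnj8 are the pores of ATP-sensitive potassium channels, the first in neurons and muscle, the other in pericytes. Kcnj11 had 32.9, 31.01 and 37.7 CPM in the 4-week controls against 26.9, 23.1 and 25.8 CPM in the cKO-labelled libraries. At 4.5 weeks Kcnj11 had 33.5, 38.1 and 37.1 CPM in the controls against 11.4, 13.7 and 14.2 CPM in the cKO-labelled libraries. Its groups were apart at both times (log2 change -0.42 ± 0.10, adjusted p 0.00528; then log2 change -1.47 ± 0.10, adjusted p 5.72e-08), and the 4-week call was lost with a term for sex (log2 change -0.39 ± 0.15, adjusted p 0.0796). Kcnj8 rose from 4.49, 3.99 and 5.55 to 7.20, 6.21 and 6.40 CPM at 4.5 weeks (log2 change 0.50 ± 0.20, adjusted p 0.0437), a call lost without any 1 of 8 libraries (adjusted p up to 0.15), among them every control of 4 weeks and every library labelled cKO of 4.5 weeks. Kcne4 and Kcnmb1, of smooth muscle, were not called (0.41 and -0.94). Vascular markers (6 genes) summed to 266 to 308 CPM in the 4.5-week controls and 357 to 475 in the cKO-labelled libraries, with 4 higher and 1 lower, and their part was not tested. Muscle markers (6 genes) reached 148 CPM in control library 2 of 4.5 weeks and no more than 7.75 CPM in the later cKO-labelled libraries.

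Compared per kilobase of exon, Hcn2 stood at 144 CPM per kb in the 4-week controls, Kcnab2 at 98.5 and Scn4b at 85.9 CPM per kb. The 4-week control means of Kcnab2 and Scn4b differed by about their SDs of 7.21 and 12.9 CPM per kb, and the order of this pair is not settled. In the cKO-labelled libraries of 4.5 weeks Cacng7 held 45.3 ± 0.395 CPM per kb (mean ± SD, n = 3), above Kcnab2 at 37.1 ± 2.08 and Hcn2 at 28.7 ± 3.25. Kcng4 went from 40.5 ± 0.955 CPM per kb in the controls of that time to 4.84 ± 0.920.

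Within gene families the mixture shifted. These shares are of summed CPM per kb, were picked after the values were seen, and carry no test. Among the 4 strong inward rectifiers of the Kir2 family, Kcnj14 made up 73.4% ± 2.9 (SD, n = 3) in the 4.5-week controls and 17.5% ± 7.0 in the cKO-labelled libraries, while Kcnj2 went from 9.2% ± 0.7 to 55.8% ± 4.2 and Kcnj4 from 0.6% ± 0.2 to 15.4% ± 2.7. At 4 weeks Kcnj14 still held 63.0% ± 5.1, Kcnj2 14.6% ± 2.2 and Kcnj4 12.2% ± 5.0 in the cKO-labelled libraries. The family sum was 25.4 ± 0.795 CPM per kb in the 4.5-week controls and 13.4 ± 2.64 in the cKO-labelled libraries. Kcnj4 was a member only through cKO-labelled libraries, so that its higher share there was set by the membership rule. The shares of Kcnj14 and Kcnj2 did not overlap between the groups, but shares of 1 sum are not independent. A fall of Kcnj14 alone raises the shares of the others.

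Of the L-type pores, Cacna1d made up 47.2% ± 1.0 of the pair in the controls and 71.6% ± 2.3 in the cKO-labelled libraries at 4.5 weeks, and 48.4% ± 1.9 and 54.6% ± 1.7 at 4 weeks.

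**Figure D5:**
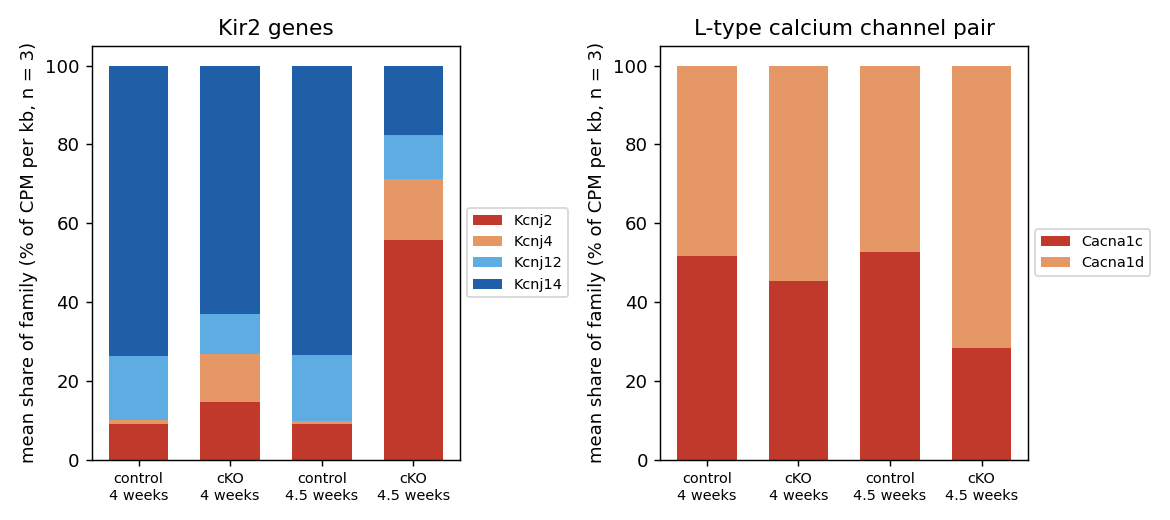
Mean share (3 libraries per group) of each gene in the summed CPM per kilobase of the Kir2 family (left) and of the L-type calcium channel pair Cacna1c and Cacna1d (right), by group. In the cKO-labelled libraries of 4.5 weeks Kcnj2 makes up 55.8% of the Kir2 sum and Kcnj14 17.5%, and Cacna1d makes up 71.6% of the L-type pair.

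Genes of channel partners outside the name pattern fell with the channels. Of 26 listed, 25 were tested: 15 fell and 2 rose at 4 weeks (median -0.31), and 19 fell and 3 rose at 4.5 weeks (median -1.18). Of all genes, 17.2% fell and 20.1% rose at 4 weeks, and 32.6% and 33.3% at 4.5 weeks. The largest falls at 4.5 weeks were in Fgf12, a cytoplasmic modulator of sodium channels (-1.81 ± 0.11), Pex5l, the HCN auxiliary protein TRIP8b (-1.68 ± 0.066), and Cntnap2, which organises Kv1 channels beside the node (-1.65 ± 0.11). Rest, a repressor of neuronal genes including several channels, rose at both times, with 11.6, 11.7 and 11.4 CPM in the 4-week controls against 17.1, 20.1 and 18.4 CPM in the cKO-labelled libraries. At 4.5 weeks Rest had 13.6, 13.2 and 11.7 CPM in the controls against 33.2, 32.4 and 33.7 CPM in the cKO-labelled libraries. Its groups did not overlap (log2 change 0.68 ± 0.082, adjusted p 4.34e-05; then log2 change 1.37 ± 0.082, adjusted p 1.45e-08). Abcc9, the regulatory subunit of vascular ATP-sensitive channels, and Nedd4l, a ubiquitin ligase that removes sodium channels, rose at 4.5 weeks by 0.38 ± 0.11 and 0.18 ± 0.066.

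Control libraries also differed between the times. From 4 to 4.5 weeks 22 members were higher and 3 lower in the controls, beside 9.53% and 7.21% of all genes (16.7% in either direction), with a median of 0.12 for members and 0 for all genes. All 4-week controls and no 4.5-week control lacked Xist, and each time was deposited as its own table, so that time, sex and table cannot be told apart here. With a term for sex 0 of all genes tested were called in either direction, members included, and the members' median was 0.22. That term rests on 1 male cKO library of 4 weeks, so this fit has little power and cannot separate sex from time. Without control libraries 1 and 2 of 4.5 weeks 8 members were higher. The 22 were 11 and 10 without control library 1 or 2 of 4 weeks and 14 without control library 2 of 4.5 weeks, and the 3 were 0 or 1 without any 1 control library other than library 3 of 4 weeks and 6 without cKO library 1 of 4 weeks. Scn1a was among the genes higher at 4.5 weeks (0.71 ± 0.14 on the log2 scale), and this difference between the controls enters the difference between its effects at the 2 times. The same holds for every other gene whose controls differed between the times, in either direction. Of the 46 neuronal channels 15 were higher and 0 lower in the later controls.

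Promoter letters are shown for members that rose, with the relatives that hold the same motif, since the rising genes came from several classes. RefSeq (GRCm38.p6) start sites were found for 78 of the 111 members, and for 4 of the 7 that rose at both times. The E-box CACGTG, searched on both strands in the 250 bases before the start, was present for 4 member genes and in 6.02% of 32851 promoters. It stands in capitals below in Kcnn4 and Kcnj2, which rose, and in Kcne4 and Kcnab1, which were not called and fell at 4.5 weeks. The letters GGACAGCG, 1 part of the RE1 element bound by Rest, stand in capitals in Kcnj4, which rose, and in Cacnb1, which fell at 4.5 weeks (-0.77 ± 0.069 on the log2 scale), and occur in 0.99% of promoters. The windows are chr7:24370103-24370162 (plus strand), chr11:111066053-111066112 (plus), chr1:78816830-78816889 (plus), chr3:65108825-65108884 (plus), chr15:79505335-79505394 (minus) and chr11:98022769-98022828 (minus), in the order listed.
Kcnn4: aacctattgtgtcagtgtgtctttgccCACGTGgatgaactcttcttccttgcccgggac
Kcnj2: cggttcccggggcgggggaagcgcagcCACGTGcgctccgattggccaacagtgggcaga
Kcne4: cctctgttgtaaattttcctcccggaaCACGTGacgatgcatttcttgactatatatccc
Kcnab1: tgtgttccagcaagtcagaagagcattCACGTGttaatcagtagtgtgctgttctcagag
Kcnj4: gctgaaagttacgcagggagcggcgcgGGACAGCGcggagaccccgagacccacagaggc
Cacnb1: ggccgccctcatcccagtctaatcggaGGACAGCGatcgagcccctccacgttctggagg
The other part of RE1, TTCAGCACC, was found for 1 member, Kcnh6, and in 0.3% of promoters. The AP-1 letters TGANTCA were found for 4 members, Cacng5, Kcnip3, Kcnip4 and Kcnk2, and in 6.75% of promoters, and the letters GAGGAAGT of the myeloid factor PU.1 for 0 members and in 2.44%. A match describes these letters only.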

How the data were processed

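For each time the authors deposited 1 table of estimated counts, with 1 row per gene and no scaling. The authors made these estimated counts with STAR, RSEM and the build mm39, per the submitters' processing notes; versions, parameters and the gene annotation are not given in the sources used here. The 3 animals of a group are independent biological replicates per the labels' protocols.

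Estimated counts were rounded and fitted in R 4.3.3 with edgeR 4.0.16: its filter on low counts over the 4 groups, scaling by trimmed mean of M values, 1 mean per group, the quasi-likelihood F test, and adjustment by Benjamini and Hochberg over all 19278 genes of a contrast. Genes with an adjusted p below 0.05 were called. CPM values use the scaled library sizes, errors of log2 fold changes are standard errors, and adjusted p-values come from edgeR unless another tool is named. Lengths per kilobase are exon lengths from GENCODE M21, and exon sharing was read from the same annotation.

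Members and lists were chosen with earlier results of these data known. Named genes were, among members, the 10 called with the largest rise and fall at each time, the 4 that differed most between the times each way, the 2 with the smallest p in each class, the members of the glial, ganglion and vascular lists, and 15 channels set by name; of partners, the 3 largest called changes in each direction at 4.5 weeks. A few genes that this rule names are not reported here, and the counts include them.

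Alternatives were size factors of DESeq2 1.42.0, upper quartile scaling, library totals alone, no filter, a minimum of 1 CPM in 3 libraries, the DESeq2 Wald test, limma-voom (limma 3.58.1), each time fitted alone, a replicate block, a sex term, a test against a 1.5-fold change, a fit without control libraries 1 and 2 of 4.5 weeks, and fits that leave out each single library. The fit was tested on simulated counts.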

Additional observations from a re-analysis of the deposited data

Results flagged for a closer look

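For 38 of the named genes the effect of the label differed between the times by edgeR's interaction test, the difference being the effect at 4.5 weeks minus the effect at 4 weeks in log2 units. Over all genes tested, 40.7% were called in this test. The named genes were picked partly by this test and by the size of their changes, so their count is no result about channels. Differences between the controls of the 2 times enter each of these values, and time, sex and table cannot be told apart there. The difference was positive where a gene was raised more at 4.5 weeks: 0.57 in Kcnq1ot1, 0.72 in Cacng4, 0.85 in Kcna5, 0.87 in Cacna1d, 0.93 in Kcnf1, 0.96 in Kcnj2 and 2.001 in Kcnk6. For Kcnk13 the difference of 0.83 came from a fall that was smaller later. The rise was smaller later for Kcnn4, with a difference of -1.57, and for Scn3b, with -0.49.

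All others were lower at 4.5 weeks relative to their own controls than at 4 weeks. Among genes of Kv, Kv7 and EAG pores and of their beta subunits the difference was -2.69 in Kcng4, -2.13 in Kcng1, -1.97 in Kcns3, -1.81 in Kcnab1, -1.42 in Kcnh7, -1.41 in Kcnab2, -1.23 in Kcnc1, -0.95 in Kcnh2, -0.91 in Kcnc4, -0.82 in Kcna6 and -0.52 in Kcnd2. Among other potassium channels it was -2.73 in Kcnj14, -1.25 in Kcnk9, -1.05 in Kcnj11, -0.86 in Kcnj12, -0.78 in Kcnk1, -0.69 in Kcnj3 and -0.69 in Kcnma1. Among sodium channel genes it was -1.78 in Scn4b and -1.46 in Scn1a. Among calcium channel genes it was -1.68 in Cacng2, -1.45 in Cacna2d3, -0.81 in Cacnb4, -0.48 in Cacng7, -0.46 in Cacna1i, -0.37 in Cacna1b and -0.28 in Cacna1c. For the pacemaker gene Hcn2 it was -1.26. The difference for Cacna1b was lost without cKO library 3 of 4 weeks, control library 3 of 4.5 weeks or cKO library 1 of 4.5 weeks (adjusted p up to 0.0574), and that for Cacna1c without any 1 of 6 libraries, 2 of 4 weeks (control 2 and cKO 1) and 4 of 4.5 weeks (controls 2 and 3, cKO 1 and 3), at adjusted p up to 0.0863.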

How the results depend on the processing

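No called value of a named gene changed direction under any alternative, while values that were not called, such as that of Kcna3 at 4.5 weeks, changed sign. Against a 1.5-fold change, 4 members were lower at 4 weeks, 7 higher at 4.5 weeks, 2 and 33 had a higher or lower effect at 4.5 weeks, 0 neuronal channels were lower at 4 weeks, 1 glial channel was lower at 4.5 weeks, and 0 members differed in either direction between the controls. With a sex term 19 members and 10 neuronal channels were lower at 4 weeks, and 0 were higher or lower in the later controls; this term rests on 1 male cKO library. With library totals alone 11 members were higher and 29 lower at 4 weeks, and the median of all genes moved by at most 0.088. Without control libraries 1 and 2 of 4.5 weeks 8 members were higher and 0 lower in the later controls, and 3 glial channels were lower at 4.5 weeks. With 1 library left out, members lower at 4 weeks numbered 29 to 47, neuronal channels lower at 4 weeks 17 to 30, members higher in the later controls 10 to 28 and lower 0 to 6, and glial channels lower at 4.5 weeks 3 to 5. Replicate numbers are shared by the groups but pair no animals: deviations of same-numbered libraries correlated at -0.165 to 0.057 over genes. With a replicate block 7 members were higher and 42 lower at 4 weeks, 12 and 86 at 4.5 weeks, and 8 and 65 had a higher or lower effect later. Leaving the fits without 1 library aside, of 1994 alternative values of named genes 119 lost a call (61 of them against a 1.5-fold change) and 17 gained one; each fit without 1 library lost 2 to 10 calls. The depth of 33104560 counts or more leaves genes near 1 CPM, such as Kcnj13, Kcnq1 and Kcnmb1, the least certain.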
